A study of Homo sapiens with 6 samples.

Results

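The MYC and PVT1 enhancer domain on the long arm of chromosome 8 was described in Calu-3, an established human cell line of airway epithelial character that came from a lung adenocarcinoma. The domain was taken as the 1.8 Mb from 127.8 to 129.6 Mb of chromosome 8 in the genome build hg19, with MYC at 128.748 to 128.754 Mb and PVT1 from 128.807 to 129.114 Mb. Its members were all called intervals whose centre lay in this window, 173 of the 73341 intervals in the 4 deposited lists. They were 8 of 1537 peaks of EHF replicate 1, 10 of 5216 peaks of EHF replicate 2, 60 of 34638 H3K27ac regions and 95 of 31950 H3K4me1 regions. The window was chosen by position, with the number, width and score of the intervals in these same lists in view, so its counts and levels are given as a description, without a test. Gene positions are rounded to 1 kb, and no other annotation of this build was used here, so neighbouring transcripts and exons are not named.

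The libraries came from chromatin immunoprecipitation followed by sequencing (ChIP-seq) of Calu-3 cells, with no treatment named in the labels. EHF, short for Ets homologous factor, is a transcription factor of epithelia that belongs to the ETS family. It had 2 replicate libraries, and H3K27ac and H3K4me1 had 1 library each. An input library was paired with both EHF libraries and another with both mark libraries, and the input reads were not analysed here. Depth per the file headers was 10176290 and 8418631 tags in EHF replicates 1 and 2, 21426939 in H3K27ac and 12989646 in H3K4me1. Called intervals held 0.155%, 0.74%, 28.9% and 5.8% of these tags in the same order. The labels do not tell if the EHF replicates were separate cultures, the line's cell type was not checked against marker genes because no expression was measured, and each mark has no replicate check.

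MYC encodes a basic helix-loop-helix transcription factor that drives growth and cell division. PVT1 is a long noncoding RNA gene next to it and transcribed in the same direction. Much of the control of MYC comes from enhancers spread over the gene-poor DNA on both sides of it, which differ between tissues, and some of them lie inside PVT1. In a subset of lung adenocarcinomas an enhancer on the far side of PVT1 is focally amplified. H3K4me1 is found at enhancers whether or not they are active, and H3K27ac marks active enhancers and promoters.

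Called regions of both marks were denser in the window as a whole than on all other sequence, and the marks were divided differently along it. The widest H3K27ac regions with the highest scores lay 439 and 518 kb upstream of MYC, and PVT1 was the segment where H3K4me1 covered more bases than H3K27ac. H3K27ac regions numbered 33.3 per Mb in the window, against 11.2 per Mb on the rest of the chromosome and 11.2 per Mb on all other sequence. H3K4me1 regions numbered 52.8 per Mb in the window, against 11.4 on the rest of the chromosome and 10.3 on all other sequence. By bases, H3K27ac regions covered 8.08% of the window and 2.1% of all other sequence. H3K4me1 regions covered 5.54% of the window and 0.762% of all other sequence. EHF replicate 1 had 4.44 peaks per Mb in the window and 0.671 on the rest of the chromosome. EHF replicate 2 had 5.56 peaks per Mb in the window and 1.71 on the rest of the chromosome.

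The density did not end at the edges of the window. In the window of equal length on the side of lower coordinates, H3K27ac covered 8.02% and H3K4me1 3.82% of the bases. On the side of higher coordinates the values were 5.34% for H3K27ac and 2.47% for H3K4me1. EHF replicate 1 had 8 peaks in the window, 4 in the lower flank and 8 in the upper flank. EHF replicate 2 had 10 peaks in the window, 11 in the lower flank and 7 in the upper flank. Replicate 1 thus had fewer peaks in the lower flank than in the window and as many in the upper flank, and H3K4me1 differed more from the flanks than H3K27ac did. At the lower edge the first H3K27ac region inside was 943 bp wide with a score of 60, and the last outside was 501 bp wide with a score of 10. At the upper edge the last H3K27ac region inside had a score of 421, and the first outside had a score of 307 and lay 52.2 kb beyond the edge. For H3K4me1 the scores inside and outside were 29 and 29 at the lower edge, and 11 and 25 at the upper edge. For EHF replicate 1 they were 8 and 11 at the lower edge and 9 and 11 at the upper edge, and for EHF replicate 2 they were 20 and 17 at the lower edge and 13 and 10 at the upper edge.

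**Figure D1:**
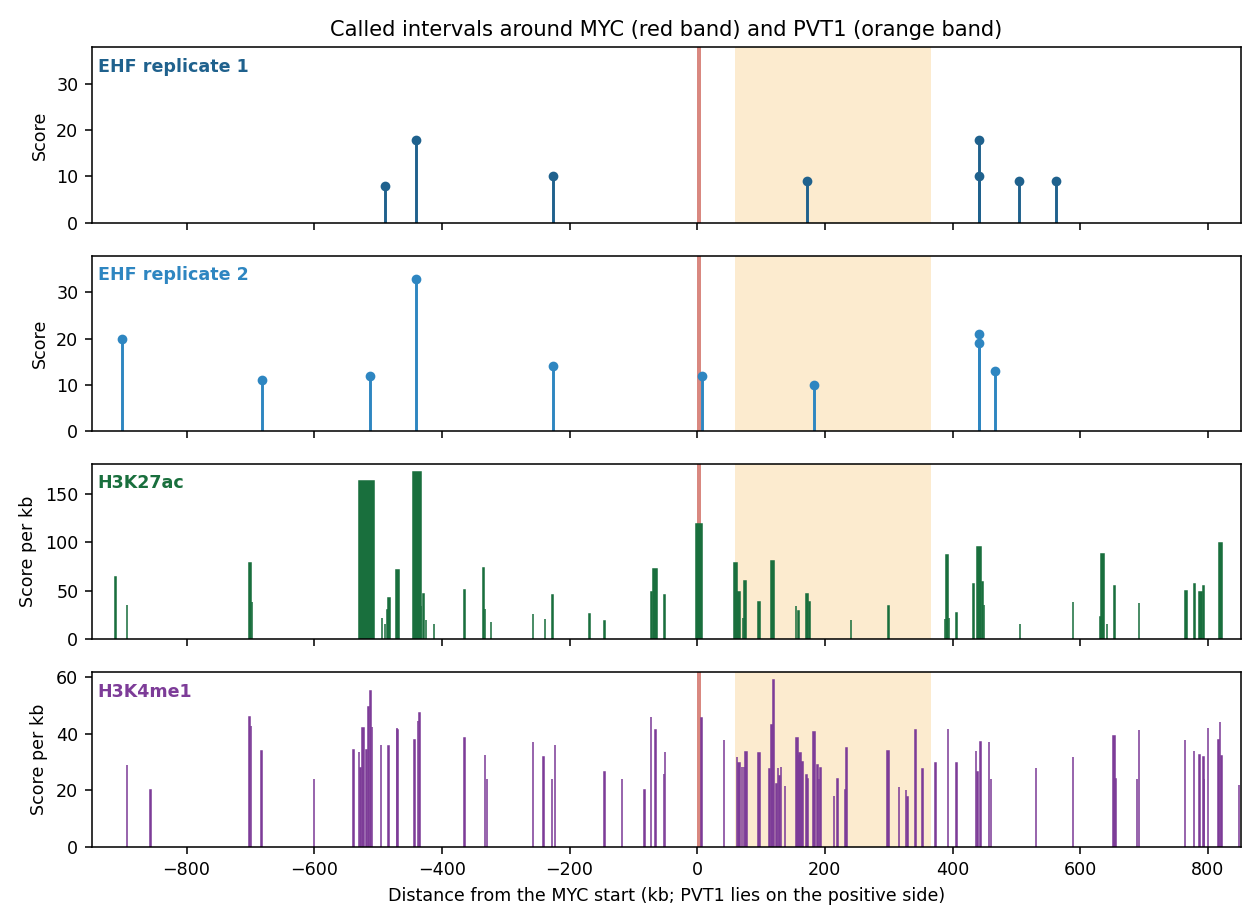
Intervals of the 4 lists by distance from the MYC start in kb, with the deposited score as height for EHF peaks and the score per kb as height for mark regions. Regions are drawn to scale but no thinner than a line, and the high H3K27ac blocks at -518 and -439 kb stand apart from the scattered regions elsewhere.

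The score used here is the authors' value for each interval, a tag count scaled to a library of 10000000 tags, and the score per kb divides it by the width. The median score per kb was higher in the window than on the rest of the chromosome for both marks. The median over H3K27ac regions was 40.6 per kb in the window (quartiles 25.9 and 59.2) and 28.0 on the rest of the chromosome (20 and 40.7). Over H3K4me1 regions it was 32.3 per kb in the window and 23.6 on the rest of the chromosome. The flanks were raised as well, with H3K27ac medians of 43.4 and 41.3 per kb and H3K4me1 medians of 29.9 and 30.0 per kb. In bins of 5 Mb along the chromosome, the H3K27ac median was 22.4 per kb from 115 to 120 Mb and 31.4 from 120 to 125 Mb. It was 40.6 from 125 to 130 Mb and between 35.9 and 41.3 in each of the bins beyond. The 125 to 130 Mb bin ranked 36 of 529 bins with at least 20 regions for H3K27ac and 10 of 471 for H3K4me1. The shift in the medians therefore spanned the end of the chromosome and was not particular to the window. As summed score over summed width, H3K27ac had 89.1 per kb in the window and 67.1 and 82.5 in the lower and upper flanks. By this measure the rest of the chromosome had 45.9 per kb, and the window was the highest of these areas, though its median was below those of both flanks. Of the window's summed H3K27ac score of 12963, regions of 24425 and 11717 bp upstream of MYC held 3981 and 2017. The lists hold no input tags, and the part of DNA copy number in the scores and their ranks was not tested. The median EHF score was 9.5 in the window and 9 on the rest of the chromosome in replicate 1, and 13.5 in the window and 12 on the rest in replicate 2.

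**Figure D2:**
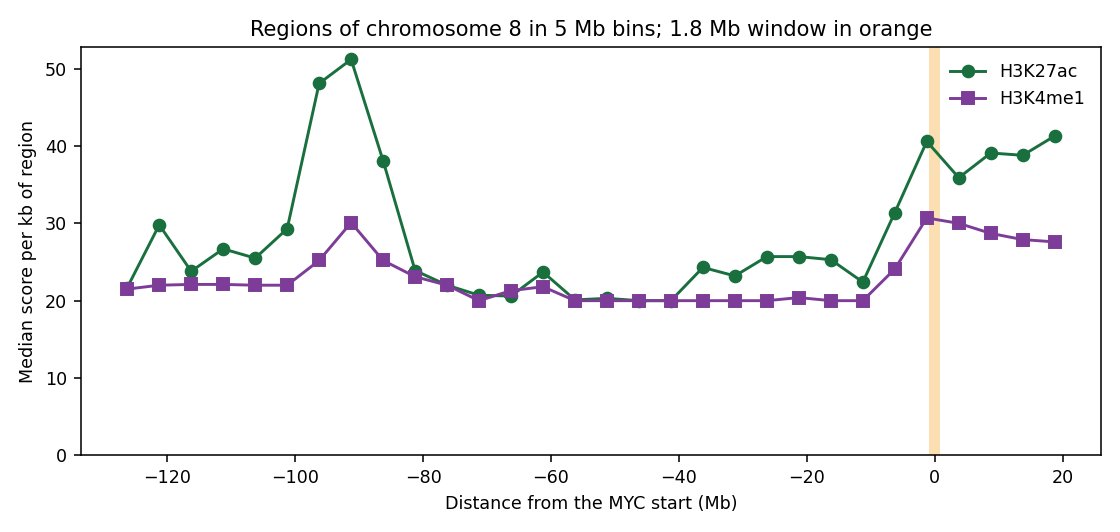
Median score per kb of the called regions of each mark along chromosome 8 in bins of 5 Mb, by distance from the MYC start, with the window shaded. Both marks are raised in the bins on and beyond the window and in a second stretch far on the lower side, between 30 and 45 Mb.

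Upstream of MYC, over 948 kb, there were 27 H3K27ac regions, 35 H3K4me1 regions and 6 EHF sites. H3K27ac was concentrated in a single stretch and sparse elsewhere. The region at chr8:128217449-128241873 was 24425 bp wide and had a score of 3981, or 163 per kb. It ranked 8 by score and 22 by width among all 34638 H3K27ac regions. Of the regions that scored higher, 3 lay in the stretch of chromosome 17 from 37.5 to 39 Mb, whose scores stand apart in this line, and the rank was 5 without that stretch. The second region, at chr8:128302910-128314626, was 11717 bp wide with a score of 2017, or 172 per kb, and ranked 37 by score and 202 by width. Their centres lay 518 and 439 kb before the MYC start. Between them stood a region of 4174 bp with a score of 299 and others with scores of 8 to 107.

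Both wide regions also held H3K4me1. The first overlapped 7 H3K4me1 regions, among them the widest upstream of MYC at chr8:128222840-128226118, with 3279 bp and a score of 137, which ranked 35 of 31950 by score. The second overlapped 3 H3K4me1 regions. Of the 34.2 kb of H3K4me1 upstream of MYC, 72.6% lay in H3K27ac regions, against 42.1% of H3K4me1 bases over the whole lists. The same share was 35.5% in PVT1 and 61.4% downstream of it. The rest of the upstream segment held long gaps. No H3K27ac region was called in the 191 kb from 127855003 to 128046455, nor in the 167 kb from 128050947 to 128217448. Nearer to MYC, a region of 4959 bp with a score of 360 lay 66.1 kb before the start, and the last one, of 501 bp with a score of 23, lay 51.3 kb before it.

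MYC itself lay wholly inside a single H3K27ac region, chr8:128746268-128754968. It was 8701 bp wide, had a score of 1037, or 119 per kb, and ranked 154 by score and 435 by width. H3K4me1 covered no base of the gene. The nearest H3K4me1 region, of 639 bp with a score of 29, began just past the rounded gene end, at chr8:128754066-128754704. An EHF peak of replicate 2 alone followed at chr8:128755588-128755712, with a score of 12. It lay 883 bp past the H3K4me1 region and 619 bp past the H3K27ac region, and the nearest peak of replicate 1 lay 172 kb from the MYC start, inside PVT1. The 53 kb between the genes held a further H3K4me1 region with a score of 19 and no centre of an H3K27ac region.

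PVT1, over 307 kb, held 12 H3K27ac regions, 34 H3K4me1 regions and 2 EHF sites. H3K4me1 covered 45.7 kb of it (14.9%) and H3K27ac 26.2 kb (8.54%), a ratio of H3K27ac to H3K4me1 bases of 0.574. The same ratio was 2.04 upstream of MYC, 2.22 downstream of PVT1 and 2.75 over the whole lists. The number of H3K4me1 regions per 100 kb was 11.1 in PVT1, 3.69 upstream of MYC and 4.94 downstream of PVT1. The number of H3K27ac regions per 100 kb was 3.91 in PVT1, 2.85 upstream and 4.12 downstream. PVT1 thus had the highest H3K4me1 density of these segments, while its H3K27ac density lay between theirs. Among regions with a score at or above the list median, H3K27ac numbered 2.61 per 100 kb in PVT1, 1.27 upstream and 2.26 downstream, so that its order among the segments depended on the low-scoring regions. H3K4me1 so limited numbered 9.12 per 100 kb in PVT1, 3.06 upstream and 3.91 downstream.

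The start of PVT1 lay in an H3K27ac region of 3427 bp at chr8:128806207-128809633, with a score of 267, or 77.9 per kb. The next region, at chr8:128810354-128815629, was the widest in PVT1, with 5276 bp and a score of 255. The region of highest score in PVT1, at chr8:128863566-128868217, had 4652 bp and a score of 372, and ranked 1150 of the list. Past 128924466 only 2 H3K27ac regions were called in PVT1, with scores of 10 and 54. The widest H3K4me1 region, at chr8:128811568-128815094, had 3527 bp and a score of 105 and lay in the widest H3K27ac region. The H3K4me1 region of highest score in PVT1, at chr8:128929318-128932462, had 3145 bp and a score of 127, and ranked 45 of 31950. It lay 4851 bp from any H3K27ac region, and it held an EHF peak of replicate 2 at chr8:128931574-128931698 with a score of 10.

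Of the 34 H3K4me1 regions in PVT1, 12 overlapped an H3K27ac region, or 35.3% (exact 95% binomial interval 19.7% to 53.5%). The share was 23 of 35 upstream of MYC, or 65.7% (47.8% to 80.9%), and 14 of 24 downstream of PVT1, or 58.3% (36.6% to 77.9%). Over the whole list it was 45.2%. These intervals cover counting error only, and neighbouring regions are not independent. The 22 H3K4me1 regions of PVT1 without H3K27ac had a median width of 705 bp and a median score of 16.5, and lay a median of 10706 bp from H3K27ac. The 12 with H3K27ac had a median width of 1907 bp and a median score of 77.5. Over the whole list the medians were 640 bp and 16 with H3K27ac, and 501 bp and 12 without it. The difference had the same direction upstream of MYC and downstream of PVT1, so it was not particular to PVT1. In the whole window, 50 of 95 H3K4me1 regions overlapped H3K27ac (52.6%, 42.1% to 63.0%), and 34 of 60 H3K27ac regions overlapped H3K4me1 (56.7%, 43.2% to 69.4%). Over the whole list, 34.5% of H3K27ac regions overlapped H3K4me1.

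**Figure D3:**
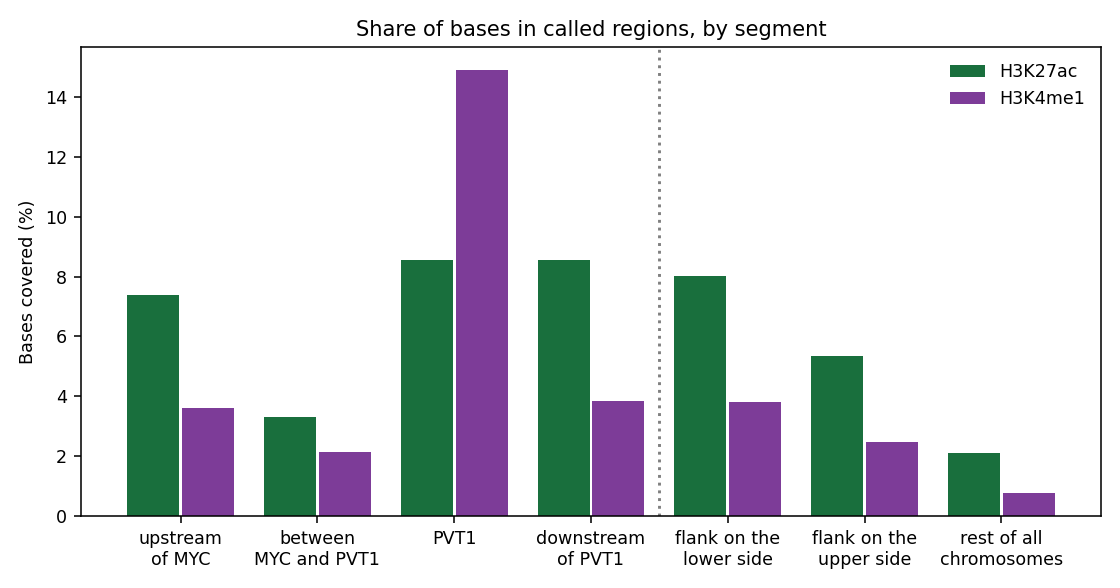
Percent of bases in called H3K27ac and H3K4me1 regions in the segments of the window, in the flanks of equal length and in all other sequence. PVT1 has 14.9% in H3K4me1 and 8.54% in H3K27ac, and H3K27ac is the higher of the marks in every other bar pair; MYC itself, with 100% in H3K27ac, is not drawn.

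Downstream of PVT1, over 486 kb, there were 20 H3K27ac regions, 24 H3K4me1 regions and 5 EHF sites. H3K27ac covered 41.6 kb and H3K4me1 18.7 kb. The H3K27ac region that was both the widest and the highest in score was chr8:129186722-129192263, with 5542 bp and a score of 528, or 95.3 per kb. Its centre lay 441 kb past the MYC start, and it ranked 604 by score. It overlapped 2 H3K4me1 regions and held 2 EHF sites called in both replicates. Over all H3K27ac regions, 585 held 1 such site and 6 held 2. Other regions of high score were a region of 4234 bp with a score of 421, at chr8:129566115-129570348, and one of 4125 bp with a score of 361, at chr8:129380746-129384870, which had no H3K4me1 region within 15 kb of it. The widest H3K4me1 region downstream had 2347 bp and a score of 76, at chr8:129533401-129535747.

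In bins of 100 kb, 16 of the 18 bins of the window held the centre of at least 1 H3K27ac region and 17 held that of an H3K4me1 region. Over the 30912 bins of all chromosomes, which include assembly gaps, the shares were 45.0% for H3K27ac and 37.7% for H3K4me1. EHF replicate 1 had a peak in 7 bins and replicate 2 in 9, against 4.49% and 12.8% of all bins. Of the 18 bins, 7 were among the 10.0% of bins with the most H3K27ac bases, and 10 were among the 10.0% with the most H3K4me1 bases. The bins with the most H3K27ac were 128.2 to 128.3 Mb with 32.6 kb, which ranked 73 of all bins, 128.8 to 128.9 Mb with 20 kb and 129.5 to 129.6 Mb with 17.7 kb. For H3K4me1 they were 128.8 to 128.9 Mb with 22.1 kb, which ranked 10 of all bins, 128.9 to 129.0 Mb with 16.8 kb, which ranked 24, and 128.2 to 128.3 Mb with 13.3 kb, which ranked 73. The leading H3K27ac bin was thus upstream of MYC and the leading H3K4me1 bins in PVT1.

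The bin from 128.9 to 129.0 Mb showed the widest gap in favour of H3K4me1, with 16.8 kb of H3K4me1 and 5.47 kb of H3K27ac from 14 and 5 regions. H3K4me1 covered more bases than H3K27ac in 7 of the 17 window bins with a called mark (41.2%), against 19.9% of all such bins. The bins from 127.9 to 128.0 Mb and from 128.1 to 128.2 Mb held no H3K27ac, and that from 127.9 to 128.0 Mb held no interval of any list. Across the 18 bins the bases of both marks had a Spearman rho of 0.68, against 0.72 across all bins. Neighbouring bins share the same libraries and are not independent.

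**Figure D4:**
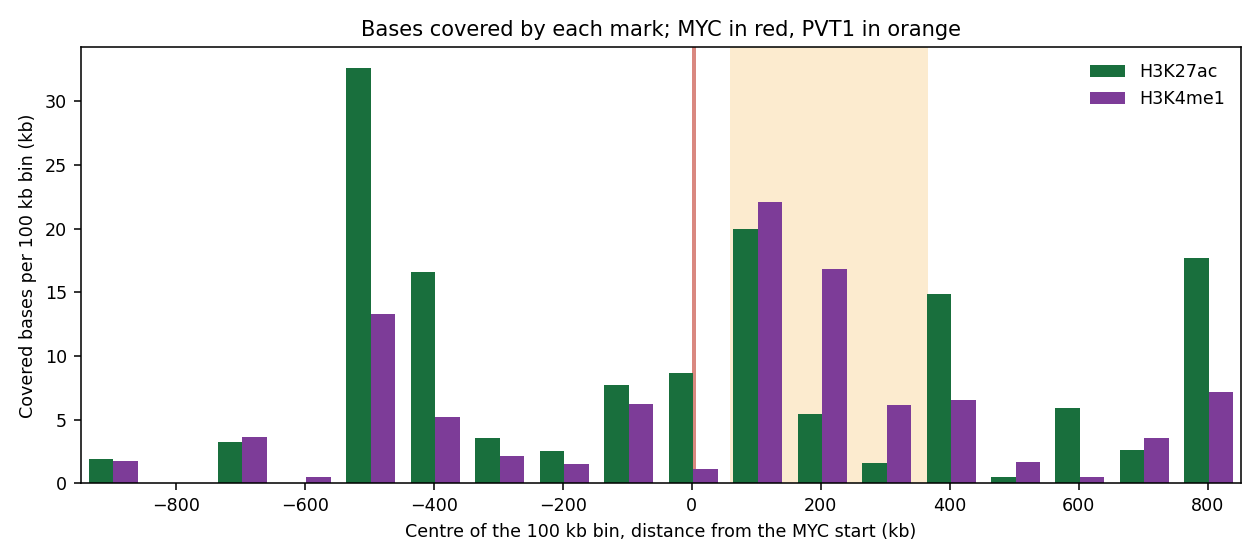
Bases covered by H3K27ac and H3K4me1 regions in each 100 kb bin, by distance of the bin centre from the MYC start. H3K27ac peaks at 32.6 kb in the bin from 128.2 to 128.3 Mb, far upstream of MYC, and H3K4me1 at 22.1 kb in the bin that holds the start of PVT1.

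Joined across gaps of up to 12.5 kb, a common rule for super-enhancers, the H3K27ac regions of the window formed 27 of the 21620 clusters of the list. Of these, 6 were among the top 5% by summed score. The cluster at chr8:128217449-128280796 spanned 63.3 kb, joined 6 regions with a summed score of 4421 and ranked 14 by score and 62 by covered bases. It held 11 H3K4me1 regions and 1 peak from each EHF list, at different places. The cluster at chr8:128302910-128335461 had a summed score of 2144 and ranked 72. The MYC region was a cluster of its own and ranked 312. At the start of PVT1, 4 regions over 18.2 kb had a summed score of 765 and ranked 551. Downstream, the cluster at chr8:129179984-129197907 had a summed score of 747, ranked 568 and held 2 peaks of each EHF list, and the one at chr8:129511431-129542445 had 690 and ranked 647.

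The EHF peaks of both lists fell at 14 sites, 6 upstream of MYC, 1 between the genes, 2 in PVT1 and 5 downstream of it. Of the 14, 4 were called in both replicates, 4 in replicate 1 alone and 6 in replicate 2 alone. No EHF peak lay in MYC or at the start of PVT1. Of the replicate 1 peaks 4 of 8 were found in replicate 2, against 50% of the whole list. Of the replicate 2 peaks 4 of 10 were found in replicate 1 (40%, 12.2% to 73.8%), against 14.7% of the whole list.

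The site at chr8:128307019-128307197 had the highest score of the window in replicate 2, at 33. It scored 18 in replicate 1, as did a site downstream of PVT1. Its ranks were 47 in the list of replicate 1 and 102 in that of replicate 2. It lay 441 kb before the MYC start in the H3K27ac region of 11717 bp, 1606 bp above one H3K4me1 region and 3294 bp below the next. The site at chr8:128521844-128521997, 226 kb before MYC, scored 10 in replicate 1 and 14 in replicate 2. Its H3K27ac region of 1366 bp was small, with a score of 62, and H3K4me1 lay 787 bp below it and 2851 bp above it. Each of these shared sites was thus in H3K27ac and outside H3K4me1, with the nearest H3K4me1 region within 2000 bp.

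The other 2 shared sites stood side by side downstream of PVT1, in the H3K27ac region of 5542 bp. The one at chr8:129188896-129189073 scored 18 in replicate 1 and 19 in replicate 2. The one at chr8:129189267-129189497 scored 10 in replicate 1 and 21 in replicate 2. H3K4me1 regions lay 1309 bp below the first site and 1999 bp above the second. The replicates put the higher score on different sites of the pair. EHF peaks were called at least 300 bp apart in replicate 1 and 250 bp apart in replicate 2, per the file headers. The peaks of the pair started at 129188896 and 129189267 in replicate 1, and at 129188949 and 129189373 in replicate 2. Their spacing was thus nearer to the limit in replicate 1 than in replicate 2.

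Sites called in both replicates and sites called in one were set beside the marks. All 4 shared sites lay in H3K27ac (lower exact limit 39.8%), against 77.7% of shared sites over the whole lists. The limit covers counting error only, and 2 of the 4 lay side by side in the same H3K27ac region, so they are not independent. Of the 10 sites of a single replicate, 2 lay in H3K27ac (20%, 2.52% to 55.6%), against 59.0% over the whole lists. These were the site at chr8:128234948-128235072, with a score of 12 in replicate 2 and inside the region of 24425 bp, and the site at chr8:128919712-128919862 in PVT1, with a score of 9 in replicate 1. The site in PVT1 was also in H3K4me1. Of all 14 sites, 6 lay in H3K27ac (42.9%, 17.7% to 71.1%), 2 in H3K4me1 and 7 in neither mark, against 61.4%, 8.47% and 36.0% of the sites over the whole lists. Within 2000 bp of an H3K4me1 region there were 9 of the 14 sites (64.3%, 35.1% to 87.2%), against 41.8% over the whole lists. Within 2000 bp of an H3K27ac region there were also 9 of the 14 (64.3%, 35.1% to 87.2%), against 68.5% over the whole lists. By replicate, 5 of 8 peaks of replicate 1 lay in H3K27ac, against 60.8% of its list, and 5 of 10 peaks of replicate 2, against 63.8%. In H3K4me1 lay 1 of 8 peaks of replicate 1, against 10.1%, and 1 of 10 peaks of replicate 2, against 7.98%. Of the 7 in neither mark, the one at chr8:127846428-127846552 had the highest score, 20 in replicate 2, and lay 7477 bp from H3K27ac. The site at chr8:128259354-128259504, with a score of 8 in replicate 1, lay 68 bp from an H3K27ac region of 501 bp.

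**Figure D5:**
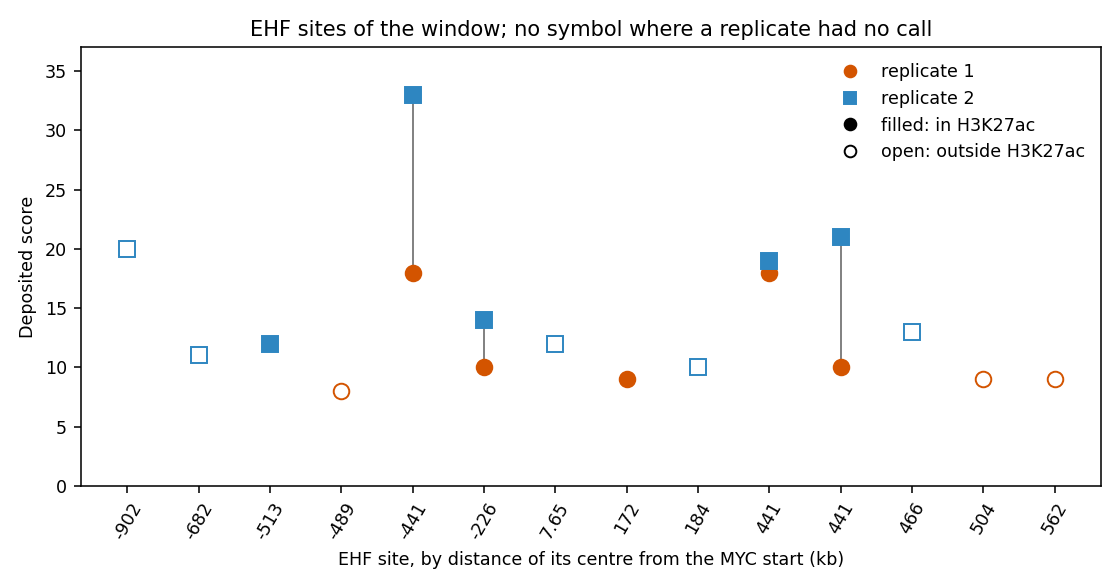
Deposited scores of the 14 EHF sites in each replicate, ordered along the chromosome by distance from the MYC start, with filled symbols inside and open symbols outside H3K27ac regions. The 4 sites joined by a line were called in both replicates and are all filled; the highest is 18 in replicate 1 and 33 in replicate 2.

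EHF peaks were found in 5 of the 60 H3K27ac regions of the window (8.33%, 2.76% to 18.4%), against 9.82% of the whole list. The share per H3K27ac region was thus close to that of the whole list, but its interval was wide. The region over MYC, which ranked 154 by score, and all H3K27ac regions in the first 100 kb of PVT1 held no EHF peak in either list. A missing peak means only that no call passed the authors' rules.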

How the data were processed

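The data were 4 deposited interval lists from ChIP-seq of Calu-3 cells. The tools were Bowtie 1.0.0 and HOMER 1.2 and the build hg19, per the submitters' processing notes. HOMER findPeaks was run by the authors on each library alone, per the file headers, with the factor setting for EHF and the histone setting for H3K27ac and H3K4me1, at a false discovery rate of 0.01 and at least 4-fold over input with a Poisson p of 1e-04. Mark calls joined windows of 500 bp, so width depends on stitching, and EHF peaks also had to exceed the surrounding 10 kb. The score is, per the file headers, the authors' tag count scaled to 10000000 tags. All scores are whole numbers.

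Intervals were assigned by their centre, overlap meant at least 1 bp, and bases were counted once, with pandas 2.3.3, numpy 2.4.6 and scipy 1.17.1 in Python 3.11.15. Overlap counting was checked on simulated intervals. Named intervals were all EHF sites, the widest and highest-scoring region of each mark per segment, the regions nearest to the gene starts, the leading clusters and those at the window edges; others named were chosen after their values were seen. The members and lists were chosen with earlier results of these data known. Exact (Clopper-Pearson) intervals cover counting error only. Alternatives varied assignment, merging, score, overlap and replicates.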

Additional observations from a re-analysis of the deposited data

How the results depend on the processing

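Of 71 alternative values, 58 kept to the main value, which meant within 1.5 times it for counts and covered bases, inside the exact interval for shares and no change for the score per kb. With scores limited to those at or above the list median, H3K27ac regions numbered 12 upstream of MYC and 11 downstream of PVT1, and EHF sites in PVT1 numbered 1. Counting each segment that a region overlaps put 2 H3K27ac regions between MYC and PVT1. Within 2000 bp, 64.3% of EHF sites met H3K4me1 and 63.2% of H3K4me1 regions met H3K27ac. The H3K27ac score per kb was 89.1 as summed score over summed width and 57.1 over regions of at least 1000 bp, and the cause was not tested. Leaving out an EHF replicate gave 3 to 5 EHF sites upstream of MYC, 0 in MYC, 0 to 1 between the genes, 1 in PVT1 and 3 to 4 downstream, and shares of 50% to 62.5% in H3K27ac and 10% to 12.5% in H3K4me1. Without the chromosome 17 stretch, chosen after seeing the data, 7 H3K27ac clusters were in the top 5%. Only 0.155% of tags lay in peaks of EHF replicate 1, against 0.74% in the shallower replicate 2, and what this does to the sites that recur was not tested. No paired analysis was possible because only EHF has replicates and no result comes from a fit.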
